A study of Mus musculus with 6 samples.

Results

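Lipoproteins carry triglyceride and cholesterol through the blood, and the liver both makes and clears them. The 10 genes described here encode receptors that take up lipoproteins or their lipids (Vldlr, Lrp1, Scarb1), lipases that break down their triglyceride and phospholipid (Lpl, Lipc), an enzyme that esterifies cholesterol on high-density lipoprotein (HDL) (Lcat), proteins that move lipid onto or between particles (Mttp, Pltp) and transporters that export cholesterol from cells (Abca1, Abcg1). They were grouped by function and listed by name. Every probe whose accession belongs to one of the 10 in RefSeq was used, which gave 13 probes. Vldlr, Scarb1 and Lpl had a pair of probes each, and the other 7 genes had 1 probe. The 10 genes stand among 20284 genes and the 13 probes among 55681 probes on the array.

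Expression was measured in liver RNA of 6 male mice, on 1-colour Agilent arrays that bind RNA copies carrying the dye Cy3. The labels put 3 livers in a WT group and 3 in a Gα12 KO group; the latter lack Gα12, a G protein α subunit that Gna12 encodes. All mice were 8 weeks old, on a chow diet, sampled after an overnight fast, and had a background that was 95% C57BL/6, with C57BL/6 and 129/Sv given as the strains. The sources used here do not give which part of Gna12 was deleted or whether the WT mice were littermates. The comparison asked how the hepatic transcriptome differs when Gα12 is missing. A level below is the log2 signal of a probe minus the 75th percentile of its array, so 0 is that percentile and 1 unit is a factor of 2. Livers are called WT 1 to 3 and KO 1 to 3 after the replicate numbers in their titles, and a difference is KO minus WT. Levels of different probes were not compared with each other, because probes bind with different strength.

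Background on the pathway helps to place the genes. Hepatocytes assemble very-low-density lipoprotein (VLDL) on apolipoprotein B with the help of Mttp and secrete it. In capillaries of muscle and fat, Lpl, anchored by Gpihbp1 and restrained by angiopoietin-like proteins, removes triglyceride from the particles, and receptors in the liver, Lrp1 among them, take up the remnants. In the reverse direction, Abca1 and Abcg1 load cholesterol onto HDL, Lcat esterifies it, Pltp and Lipc remodel the particle, and Scarb1 on hepatocytes takes up its cholesteryl esters. Adult liver is known for little Lpl and Vldlr compared with muscle, heart and fat.

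The arrays themselves fell into sets that the genotypes did not follow. Over the kept probes, WT 1 and WT 2 correlated with each other at r = 0.973 and with the KO arrays at 0.869 to 0.93. WT 3 correlated with the KO arrays at 0.966 to 0.982 and with WT 1 and WT 2 at 0.897 and 0.933. The 7 probes for Gapdh, a glycolytic enzyme, spanned 9.58 and 7.79 log2 units on WT 1 and WT 2 but 4.01 on WT 3 and 4.36 to 4.87 on the KO arrays. The 3 WT arrays lay in slide row 1 and the 3 KO arrays in row 2, so genotype and slide row cannot be told apart. Spots marked as non-uniform numbered 2 to 6 on WT arrays and 98 to 158 on KO arrays. The part of these measures in the results was not tested. The difference of each of the 13 probes is therefore given with all 6 livers, without WT 1 and WT 2, and without WT 3. With WT 3 as the lone WT liver, limma takes its spread from the KO livers, so that liver is assumed to vary as they do. The Gna12 probe read -3.48, -4.55 and -0.89 in WT 1 to 3 and -4.91, -4.62 and -3.47 in the KO livers, and only WT 3 was well above background. Its difference of -1.36 had an adjusted p of 0.317 in limma, so the probe does not separate the groups. It is therefore no check of the labels. All 10 hepatocyte markers, among them Alb, Ttr and Apoa1, were well above background on all 6 arrays.

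Vldlr and Lpl differed in opposite directions in the 2 genotypes: the brighter Vldlr probe was lower in all 3 KO livers than in any WT liver, and the dimmer Lpl probe was higher in all 3. Mttp was also lower in all KO livers, with WT 3 close to them. Abca1 and Abcg1 were high in WT 1 and WT 2 alone. Lcat, Lipc, Lrp1 and one Scarb1 probe were lowest in WT 1, and low in WT 2 to a lesser degree. The differences of Pltp, Lipc and the brighter Scarb1 and Lpl probes were smaller than the SD of the WT livers. No member probe passed limma's test over all 23132 kept probes at an adjusted p of 0.05. No probe of the whole array passed either (0%), and 4861 of the kept probes had an unadjusted p below 0.05. Of the 13 member probes, 4 had an unadjusted p below 0.05. The lower ones were the brighter Vldlr probe and Mttp, beside a background of 15.4% of all kept probes. The higher ones were the dimmer Lpl and Scarb1 probes, beside a background of 5.62%. Groups did not overlap for 3 member probes, 2 lower (background 18.8%) and 1 higher (background 5.52%). With so few probes these shares do not set the genes apart from the array. Of the member differences 6 were negative and 7 positive, with a median of 0.193, while 65.5% of kept probes were negative, with a median of -0.383. That median moved with the scaling, to -0.245 with arrays scaled to their median and to -0.162 with quantile normalization. Over all 55324 probes with no filter on dim signal it was 0.279. Among those with an unadjusted limma p below 0.05, 4374 were negative and 12280 positive. The lean to lower levels thus holds for the kept probes and not for all probes. The floor of an array, the level below which 1% of its probes lay, was -6.19 to -5.4 in WT and -5.12 to -4.8 in KO livers. The part of this floor in the counts over all probes was not tested. Relative to the median of the kept probes, -0.383, the difference was -1.50 for the brighter Vldlr probe, -0.67 for Mttp and 2.27 for the dimmer Lpl probe. In liver tissue, fewer cells of a type and less RNA per cell cannot be told apart.

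**Figure D1:**
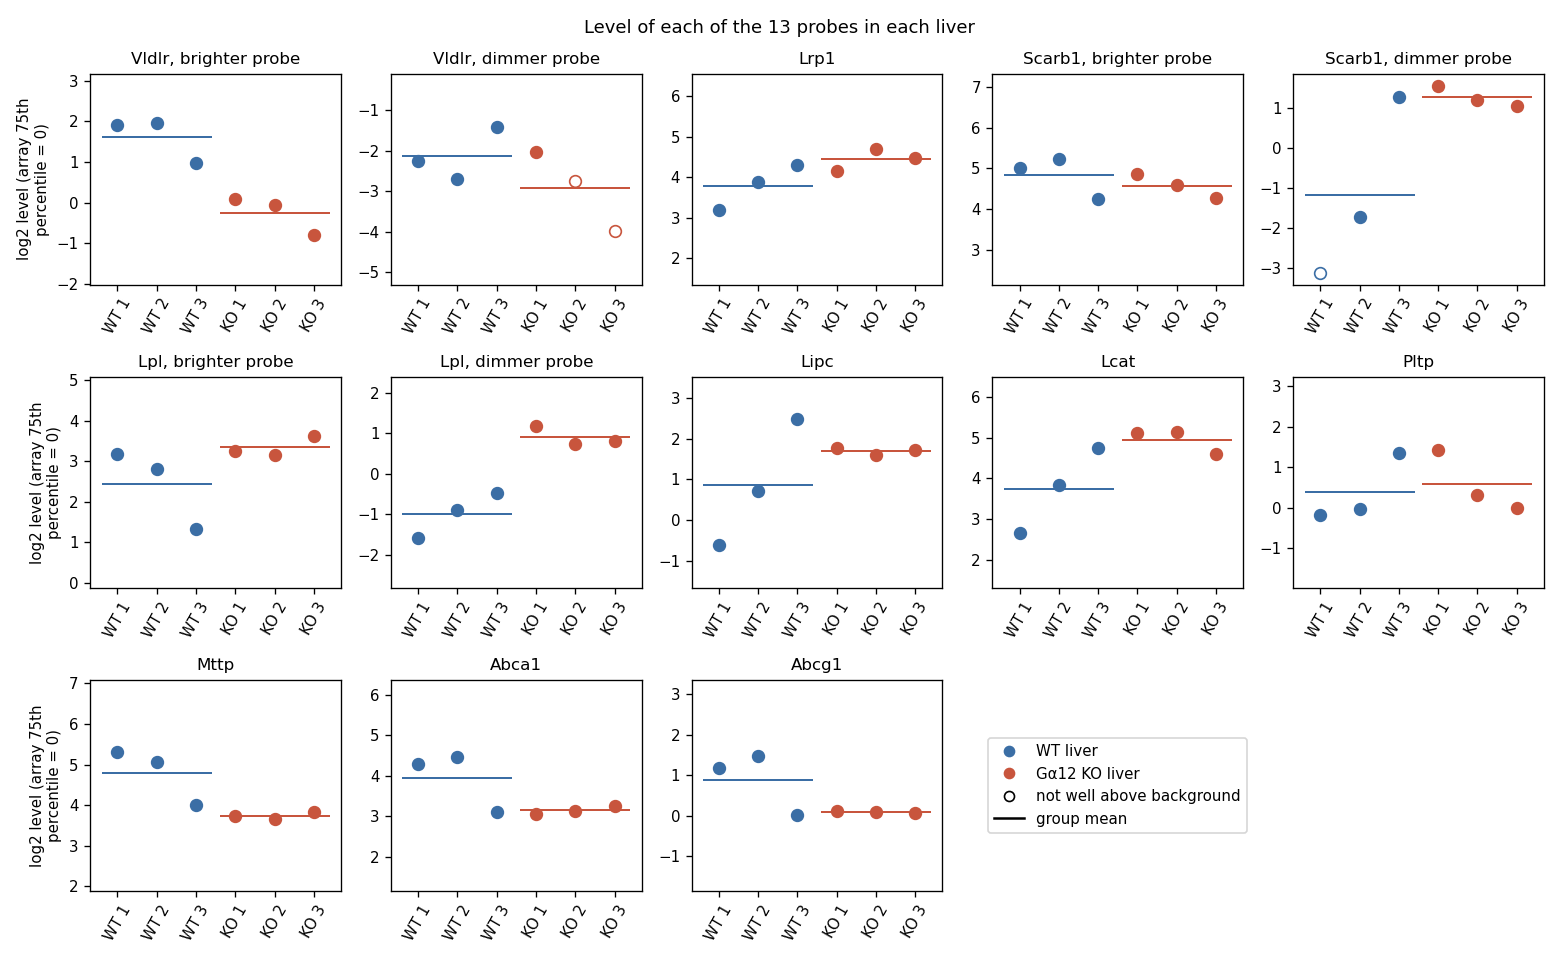
The 13 probes of the 10 genes, 1 panel each, with the 6 livers on the horizontal axis. The vertical axis is the log2 level (array 75th percentile = 0), spanning nearly the same number of units in every panel. Points are single livers, open where the probe was not well above background, and lines are group means; the brighter Vldlr probe, the dimmer Lpl probe and Mttp are the 3 panels in which blue and red points do not overlap, and WT 3 lies with the KO livers for Abca1, Abcg1 and the dimmer Scarb1 probe.

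Vldlr encodes the VLDL receptor, which binds particles carrying apolipoprotein E and helps deliver triglyceride to cells. Its brighter probe (A_55_P2030524) read 1.91, 1.97 and 0.97 in WT 1 to 3 and 0.08, -0.05 and -0.81 in KO 1 to 3. Every KO liver lay below every WT liver, and WT 3 was the nearest WT liver. WT livers averaged 1.62 ± 0.56 (SD, n = 3) and KO livers -0.26 ± 0.48 (SD, n = 3). The difference of -1.88 (SE 0.42), a level 3.68 times lower, had an unadjusted limma p of 0.00229 and an adjusted p of 0.235. By unadjusted p the probe ranked 208 of 23132. The difference was -1.24 (adjusted p 0.671) without WT 1 and WT 2, and without WT 3 it was -2.2 (adjusted p 0.00554). The processed intensities behind it were 837, 1234 and 1068 in WT and 320, 284 and 227 in KO livers, well clear of background.

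The dimmer Vldlr probe (A_55_P2174836) had much less signal and separated the groups less. It read -2.27, -2.70 and -1.42 in WT and -2.04, -2.74 and -3.98 in KO livers. KO 2 and KO 3 were not well above background, and KO 1 lay between WT 1 and WT 3. Its difference of -0.79 (SE 0.57) had an adjusted p of 0.355 in limma. It was -1.50 without WT 1 and WT 2, and without WT 3 it was -0.44. With the levels of both probes averaged, and genes in place of probes in the fit, Vldlr differed by -1.34 (SE 0.40, adjusted p 0.22), again without overlap of the groups.

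By the rule of highest Pearson correlation with the brighter Vldlr probe over the 6 livers, the genes with the most similar pattern were Macrod1 (r = 0.995), Peg12 (0.994), Il1b (0.993), Fignl1 (0.991) and Zhx3 (0.991). They were picked for this likeness among 12297 measured genes, and the 6 livers share the arrays' set structure, so the coefficients are descriptions. Il1b, which encodes the cytokine interleukin-1β, read 2.12, 1.78 and -0.28 in WT and -1.66, -2.46 and -3.49 in KO livers. Like Vldlr it was lower in each KO liver than in each WT liver, with WT 3 the lowest WT liver and KO 3 the lowest of all. Its difference of -3.74 (SE 0.72) had an adjusted p of 0.225 in limma. Macrod1, an ADP-ribose hydrolase, kept the same order over a narrow range, from 5.24 in WT 2 to 4.62 in KO 3.

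RefSeq lists a pair of start regions for Vldlr, shown because Vldlr was the member with the clearest lower level. Each is the 250 bases before an annotated start on GRCm38.p6, read on the gene's strand. The first lies at chr19:27216234-27216483 and the second at chr19:27216770-27217019, both on the plus strand. Capitals mark matches, on either strand, to 6 short motifs. AGGTCA is the half-site that many nuclear receptors bind, and CACGTG is the E-box bound by basic helix-loop-helix factors such as SREBP and USF. The GC box GGGCGG is bound by Sp1, and the TATA box TATAAA by the basal transcription machinery. The CCAAT box is a common promoter element, and TGATGCAA is the core bound by ATF4.
Vldlr, first start: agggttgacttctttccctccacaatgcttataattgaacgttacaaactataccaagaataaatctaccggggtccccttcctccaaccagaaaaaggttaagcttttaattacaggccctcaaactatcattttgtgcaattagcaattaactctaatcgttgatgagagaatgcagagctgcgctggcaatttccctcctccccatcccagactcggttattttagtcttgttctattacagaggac
Vldlr, second start: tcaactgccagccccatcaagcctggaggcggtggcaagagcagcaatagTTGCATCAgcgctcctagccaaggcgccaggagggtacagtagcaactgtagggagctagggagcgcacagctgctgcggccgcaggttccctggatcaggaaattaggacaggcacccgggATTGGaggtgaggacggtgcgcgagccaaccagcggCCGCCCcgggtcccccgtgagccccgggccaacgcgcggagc
The first region, with 41.6% G and C, held none of the motifs. The second, with 66.4%, held TGATGCAA on the antisense strand 200 bases before the start, CCAAT 78 bases before it and GGGCGG 42 bases before it, both also antisense. Among 32851 regions of the same length in the table, 0.791% held TGATGCAA, 33.8% CCAAT and 32.7% GGGCGG. A match describes letters and no binding was measured. Among the 10 genes, 7 had an entry, with 9 regions in all. Across those 9, the CCAAT box and the GC box were found in 5 each, and each of the other 4 motifs in 1. There was no entry for Scarb1, Lpl and Abcg1.

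Lrp1 encodes a large endocytic receptor that clears remnant particles and many protease complexes. It read 3.20, 3.87 and 4.29 in WT and 4.15, 4.71 and 4.48 in KO livers, so that WT 1 and WT 2 were lowest and WT 3 lay within the KO range. The difference of 0.66 (SE 0.38) had an adjusted p of 0.289 in limma. It shrank to 0.15 without WT 1 and WT 2, and without WT 3 it was 0.91 (adjusted p 0.0454).

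Scarb1 encodes the HDL receptor SR-BI, and its probes gave differences of opposite sign. The brighter probe (A_55_P1954021) read 5.01, 5.23 and 4.24 in WT and 4.86, 4.59 and 4.26 in KO livers, with all KO values inside the WT range. Its difference was -0.26 (SE 0.38, adjusted p 0.638) and -0.55 without WT 3 (adjusted p 0.109), turning to 0.22 with quantile normalization and to 0.33 without WT 1 and WT 2. The dimmer probe (A_55_P2088965) read -3.12, -1.72 and 1.27 in WT and 1.55, 1.19 and 1.03 in KO livers, and WT 1 was not well above background.

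On the intensity scale, WT 1 and WT 2 gave that dimmer Scarb1 probe 25.6 and 95.4, against 1311 in WT 3 and 671 to 889 in KO livers. The low values thus belong to the same pair of arrays on which the Gapdh probes spread most, and the part of this in the result was not tested. The difference was 2.45 (SE 0.99), with an unadjusted limma p of 0.0391 and an adjusted p of 0.235. Without WT 3 it was 3.68 (adjusted p 0.00479), and without WT 1 and WT 2 it was -0.01. Averaged over both probes, Scarb1 differed by 1.10 (SE 0.47, adjusted p 0.223). The data give no direction for Scarb1 that holds for both probes.

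Lpl encodes lipoprotein lipase, which releases fatty acids from circulating triglyceride and is made mainly outside hepatocytes. Its dimmer probe (A_52_P257812) read -1.59, -0.90 and -0.48 in WT and 1.17, 0.73 and 0.79 in KO livers. All KO livers lay above all WT livers, by more than 1 unit between the nearest pair, WT 3 and KO 2. The means were -0.99 ± 0.56 (SD, n = 3) and 0.90 ± 0.24 (SD, n = 3). The difference of 1.89 (SE 0.38), or 3.70-fold, had an unadjusted limma p of 0.00129, ranking 128 of 23132, and an adjusted p of 0.228.

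The brighter Lpl probe (A_51_P259296) read 3.18, 2.81 and 1.33 in WT and 3.26, 3.16 and 3.63 in KO livers. The groups overlapped only in that WT 1 was slightly above KO 2, and WT 3 was lowest. The difference was 0.91 (SE 0.51) with an adjusted p of 0.277. On this probe WT 3 was the farthest from the KO livers, whereas on the dimmer probe WT 1 was. With WT 1 and WT 2 left out, the differences were 2.02 on the brighter and 1.38 on the dimmer probe, with adjusted p of 0.579 and 0.603. Without WT 3 they were 0.35 (adjusted p 0.265) and 2.14 (adjusted p 0.00519). Averaged over both probes, Lpl differed by 1.40 (SE 0.30, adjusted p 0.22), with no overlap of the groups. Both Lpl probes were higher in KO livers under each of these choices.

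Because Lpl is made by muscle, fat and macrophages, the markers of those cells are given beside it, as signals summed over each list with the array's 75th percentile as 1. Skeletal muscle markers (8 genes) summed to 1.98 to 3.69 in WT livers and to 2.31, 4.72 and 11 in KO 1 to 3. Most of each WT sum was Pvalb, parvalbumin, which gave 3.05, 1.52 and 1.2 in WT 1 to 3 and 1.48, 1.4 and 1.91 in KO 1 to 3. Without Pvalb, a choice made after its values were seen, the sums were 0.64, 0.571 and 0.785 in WT and 0.833, 3.32 and 9.13 in KO livers, each KO liver above each WT liver. Of the 8, 2 to 4 were well above background on the WT arrays and 2, 4 and 6 on KO 1 to 3, and Ckm and Mylpf were so on none. Acta1, skeletal actin, read -3.93 to -2.67 in WT livers and -2.45, -0.15 and 0.53 in KO 1 to 3. Tnni2, fast troponin I, was at -1.28 in KO 1, just above the WT values of -1.95 to -1.46, and at 0.87 and 2.13 in KO 2 and KO 3. The Lpl levels beside these sums were 3.26 and 1.17 in KO 1, 3.16 and 0.73 in KO 2, and 3.63 and 0.79 in KO 3. Kupffer cell and macrophage markers (9 of 10 on the array, all well above background everywhere) summed to 184, 178 and 89.4 in WT and 92.9 to 111 in KO livers. Adipocyte markers (8 genes) summed to 587 to 730 in WT and 491 to 623 in KO livers. Most of it came from Car3, which hepatocytes also express, so the sum says little about fat cells. Over the 6 of these genes that were measured, the median difference was -0.372, against -0.494 over all genes. Lep was well above background on no array. The part of these cell types in the Lpl result was not tested.

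**Figure D2:**
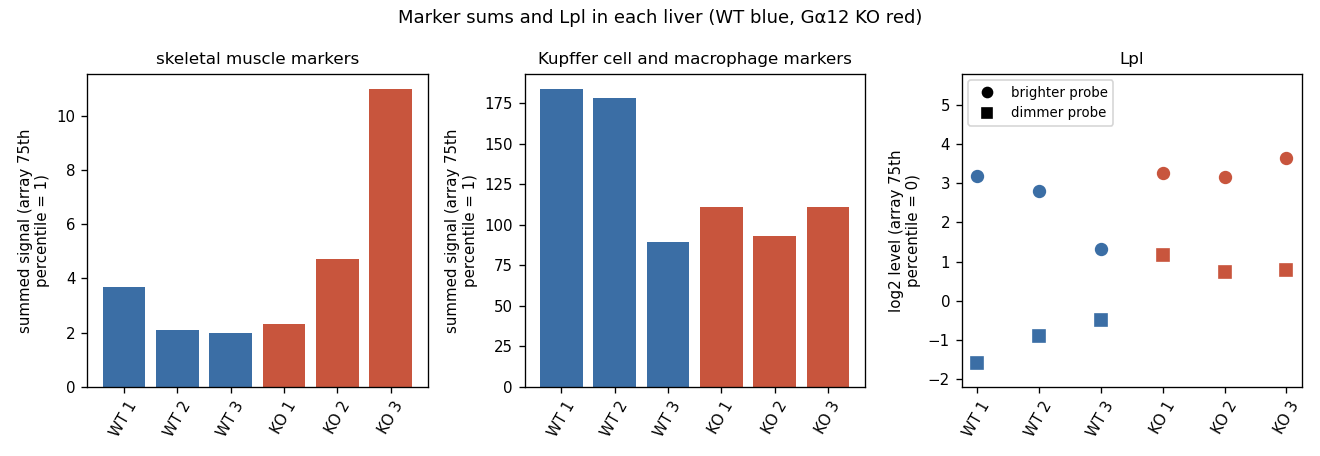
Summed signal of skeletal muscle markers and of Kupffer cell and macrophage markers (bars, linear scale from 0, array 75th percentile = 1) and the log2 level of both Lpl probes (points) in each liver, WT in blue and KO in red. The muscle sum was 2.31, 4.72 and 11 in KO 1 to 3, and the dimmer Lpl probe was at 1.17, 0.73 and 0.79 in the same livers.

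The remaining marker lists bear on the whole set of genes. Sinusoidal endothelial markers summed to 249, 214 and 154 in WT and 141 to 160 in KO livers, with 9 or 10 of 10 well above background. Stellate cell markers summed to 297, 315 and 166 in WT and 153 to 156 in KO livers (8 to 10 of 10), and blood cell markers to 481, 528 and 294 against 269 to 311 (4 to 6 of the 6 on the array). In the sums of these lists, as for Kupffer cells, WT 1 and WT 2 were highest and WT 3 was near the KO livers, as for Abca1 and Abcg1. The brightest genes carry such sums, and single genes ran the other way. C1qa, a complement gene of macrophages, read 0.16, 1.58 and 2.52 in WT and 2.64 to 3.07 in KO livers, and Kdr and Cdh5, endothelial genes, were also lowest in WT 1 and WT 2. Those 3 genes were picked after their values were seen. At an unadjusted limma p below 0.05, 0 Kupffer markers were lower and 1 higher, and 2 endothelial markers were lower and 2 higher. Stellate and blood cell markers had 1 lower and 0 higher each. Over all 12297 measured genes the shares were 16.6% lower and 3.98% higher. Without overlap, 5 endothelial markers were lower and 1 higher, 4 stellate and 2 blood markers were lower and 0 higher, and 0 Kupffer markers were lower and 1 higher. Over all measured genes these counts were 2595 and 544. Cholangiocyte markers summed to 2.4 to 4.62 in WT and 3.3 to 3.81 in KO livers (4 or 5 of 7; 1 of the 7 on no array). Pancreatic acinar markers summed to 6.66 to 13.2 in WT and 9.05 to 14.7 in KO livers, and all 6 were well above background in WT 1 but 3 of 6 in each other liver. Pnlip, pancreatic lipase, read 1.52 in WT 1 and -6.07 to -4.70 elsewhere.

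Lipc encodes hepatic lipase, which acts on remnants and HDL in the liver's sinusoids. It read -0.62, 0.71 and 2.48 in WT and 1.78, 1.59 and 1.72 in KO livers. The WT livers lay on both sides of the narrow KO range (KO SD 0.10, WT SD 1.56). The difference of 0.84 (SE 0.71, adjusted p 0.422) turned to -0.79 without WT 1 and WT 2, and was 1.65 without WT 3 (adjusted p 0.0197). Its sign thus depended on which WT livers were used.

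Lcat, secreted by hepatocytes, esterifies HDL cholesterol. It read 2.67, 3.83 and 4.75 in WT and 5.12, 5.14 and 4.61 in KO livers. WT 1 was lowest and WT 3 lay between KO 3 and KO 1. The difference of 1.21 (SE 0.54), or 2.31-fold, had an unadjusted limma p of 0.0562 and an adjusted p of 0.239. It was 0.20 without WT 1 and WT 2, and without WT 3 it was 1.71 (adjusted p 0.0168). The region before its start, shown because Lcat is made mainly by hepatocytes and its difference was positive, lies at chr8:105943403-105943652 on the minus strand (60.8% G and C). Its 1 match, in capitals, was CCAAT on the antisense strand, 80 bases before the start.
Lcat: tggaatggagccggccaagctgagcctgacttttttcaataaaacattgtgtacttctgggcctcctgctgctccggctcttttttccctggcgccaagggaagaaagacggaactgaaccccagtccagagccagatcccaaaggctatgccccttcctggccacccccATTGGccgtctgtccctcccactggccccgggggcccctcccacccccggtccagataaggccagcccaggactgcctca

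Pltp transfers phospholipid from triglyceride-rich particles to HDL. It read -0.18, -0.03 and 1.36 in WT and 1.43, 0.31 and -0.01 in KO livers, fully interleaved. The difference of 0.19 (SE 0.55) had an adjusted p of 0.817 in limma and turned to -0.78 without WT 1 and WT 2. Leaving out WT 1, WT 2 or KO 1 alone gave -0.09, -0.01 and -0.23, so no direction can be given for Pltp.

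Mttp, the microsomal triglyceride transfer protein, loads lipid onto nascent apolipoprotein B. It read 5.30, 5.07 and 4.01 in WT and 3.72, 3.66 and 3.84 in KO livers. The groups did not overlap, but WT 3 lay nearer to the KO livers than to WT 1 and WT 2. The means were 4.79 ± 0.69 (SD, n = 3) and 3.74 ± 0.09 (SD, n = 3). The difference of -1.05 (SE 0.41), a level 2.07 times lower, had an unadjusted limma p of 0.0341 and an adjusted p of 0.235. Without WT 1 and WT 2 it was -0.26, and without WT 3 it was -1.44 (adjusted p 0.00518). With replicate number as a block its unadjusted p was 0.0578. Its start region, shown for comparison with that of Vldlr, is at chr3:138143419-138143668 on the minus strand (61.2% G and C) and held none of the 6 motifs.
Mttp: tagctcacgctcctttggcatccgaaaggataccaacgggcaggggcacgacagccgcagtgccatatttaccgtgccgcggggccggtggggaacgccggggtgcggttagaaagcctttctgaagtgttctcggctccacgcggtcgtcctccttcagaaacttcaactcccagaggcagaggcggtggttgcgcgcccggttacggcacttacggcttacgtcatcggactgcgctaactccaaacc

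Abca1 moves cholesterol and phospholipid onto apolipoprotein A-I, the first step of HDL formation. It read 4.28, 4.47 and 3.11 in WT and 3.05, 3.14 and 3.24 in KO livers. WT 1 and WT 2 were more than 1 unit above every other liver, and WT 3 lay between KO 1 and KO 2. The difference of -0.81 (SE 0.42) had an adjusted p of 0.258 in limma. Without WT 3 it was -1.23 (adjusted p 0.00617), and without WT 1 and WT 2 it was 0.04. Abca1 is a well-known target of the sterol sensors LXR, and its start region is shown for that reason, at chr4:53159896-53160145 on the minus strand (61.6% G and C). It held the largest number of matches among the regions printed: GGGCGG 163 and 97 bases before the start, CACGTG 147 and TATAAA 29 bases before it. CACGTG occurred in 6.02% and TATAAA in 12.4% of all regions of this length. AGGTCA, in 14% of regions, had no exact match in this window. Only exact letters were searched, so half-sites that differ from AGGTCA would be missed. The search therefore does not decide whether the window holds an LXR site.
Abca1: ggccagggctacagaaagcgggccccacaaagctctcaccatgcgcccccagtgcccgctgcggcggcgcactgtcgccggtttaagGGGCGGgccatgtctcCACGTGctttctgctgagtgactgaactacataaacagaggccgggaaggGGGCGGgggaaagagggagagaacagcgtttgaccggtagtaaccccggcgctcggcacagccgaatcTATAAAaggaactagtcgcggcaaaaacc

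Abcg1, which exports cholesterol to mature HDL and is likewise known as an LXR target, was also highest in WT 2 and WT 1. It read 1.19, 1.47 and 0.03 in WT and 0.12, 0.08 and 0.08 in KO livers. The KO livers were close together (SD 0.02), and WT 3 was just below them. The difference of -0.80 (SE 0.43, adjusted p 0.264) became -1.23 without WT 3 (adjusted p 0.00622) and 0.07 without WT 1 and WT 2. For Abca1 and Abcg1 alike, the difference between groups thus came from WT 1 and WT 2.

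Across the 10 genes, the spread was wider among WT than among KO livers for 12 of 13 probes (92.3%), and so it was for 81% of all kept probes. The median SD of the member probes was 0.739 in WT and 0.267 in KO livers, against 0.653 and 0.217 over the array. Without WT 3, 9 of the 13 probes passed the adjusted threshold: 4 lower (the brighter Vldlr probe, Mttp, Abca1 and Abcg1; background 41.2%) and 5 higher (Lrp1, the dimmer Scarb1 and Lpl probes, Lipc and Lcat; background 15.5%). In that comparison 13123 probes of the array passed. Without WT 1 and WT 2, no member probe and no probe of the array passed, while 1704 kept probes had an unadjusted p below 0.05. Member probes below it were the brighter Vldlr probe and Lipc among the lower (background 4.77%) and both Lpl probes among the higher (background 2.6%). With all 6 livers, leaving out WT 2 or any 1 KO liver reduced the member probes with an unadjusted p below 0.05 from 4 to 2, while the share of all kept probes below it went from 21% to between 6.66% and 13.7%. The brighter Vldlr probe and the dimmer Lpl probe kept an unadjusted p below 0.05 and their direction in every such choice.

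**Figure D3:**
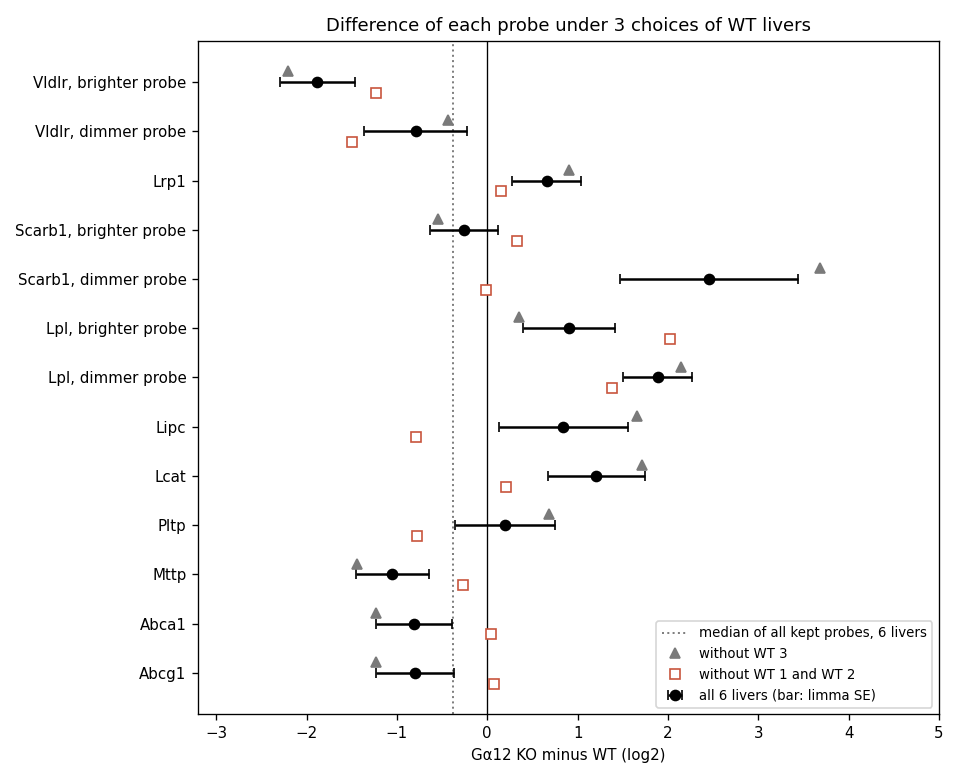
Difference between KO and WT livers (log2, horizontal axis) for each of the 13 probes: all 6 livers (black circles, bars are limma's SE), without WT 3 (grey triangles) and without WT 1 and WT 2 (open squares). The dotted line is the median of all kept probes, -0.383. For Vldlr and Lpl all 3 marks lie on the same side of 0, while for Abca1, Abcg1 and the dimmer Scarb1 probe the open squares lie at 0.04, 0.07 and -0.01.

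Genes of the same pathway were read from 5 lists, each gene by its brightest kept probe. Of 95 genes listed, 84 were measured; with an unadjusted p below 0.05, 15 had lower and 2 had higher levels in KO livers, and none passed after adjustment. Over all 12297 measured genes the shares were 16.6% lower and 3.98% higher, so the lists' counts were near the background. The median difference was -0.476 over the lists and -0.494 over all genes. Without WT 3 the lists had 47 lower and 13 higher genes at an unadjusted limma p below 0.05. Of the 23132 kept probes, counted by probe and not by gene, 10475 were lower and 4091 higher at that threshold. Among the genes named from the lists, the differences of Angptl8 and Insig1 had an unadjusted p below 0.05 without WT 1 and WT 2. These were -0.91 (p 0.0139 in limma) for Angptl8 and -1.09 (p 0.0443 in limma) for Insig1. Without those livers, Mia2 was at -0.17, Abcg5 at -0.33, Pdzk1 at -0.43, Gpihbp1 at -0.29, Srebf1 at 0.56, Pparg at -1.05 and Apob at -0.62, while Angptl4 turned to 0.21 and Nr1h3 to 0.029.

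Of receptors and their adaptors, 18 of 22 were measured, 5 lower and 0 higher (median -0.355). Pdzk1, the adaptor that holds SR-BI at the hepatocyte surface, read 5.89, 5.90 and 5.28 in WT and 4.78, 4.76 and 5.0 in KO livers, with no overlap. Its difference was -0.84 (SE 0.33, adjusted p 0.235), and its second probe gave -0.71. Lrp4 (-1.18, SE 0.45) and the scavenger receptor Msr1 (-0.93, SE 0.37) were also lower without overlap, though a second Msr1 probe, too dim for the filter, gave 0.55. Lrp6, named after its values were seen, was also among the 5, with -1.19 and overlapping groups.

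Of lipases and their regulators, 16 of 20 were measured, 2 lower and 0 higher (median -0.49). Angptl8, a hepatic hormone that restrains Lpl after feeding, read 7.15, 6.18 and 4.68 in WT and 3.70, 3.94 and 3.67 in KO livers. All KO livers were below all WT livers, and the difference was -2.23 (SE 0.60, unadjusted limma p 0.00612, adjusted p 0.235). Angptl4, the fasting-induced inhibitor of Lpl, had WT 3 at 7.15 beside KO livers at 7.31 to 7.44 (difference -0.58, SE 0.40, adjusted p 0.346). Gpihbp1, which anchors Lpl to capillaries, read 5.52, 4.89 and 4.38 in WT and 4.24, 4.13 and 3.90 in KO livers, again with no overlap (-0.84, SE 0.38, adjusted p 0.24). Ces1f, a carboxylesterase of hepatocytes, differed by -1.04 (SE 0.40, adjusted p 0.235). Lipg, endothelial lipase, was not well above background in any liver.

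Of HDL and sterol transporters, 15 of 18 were measured, 2 lower and 1 higher (median -0.339). Abcg5, a subunit of the sterol exporter to bile, read 6.45, 6.33 and 4.86 in WT and 4.54, 4.37 and 4.66 in KO livers (difference -1.35, SE 0.47, adjusted p 0.235). As with Abca1 and Abcg1, WT 1 and WT 2 were far above the other livers. Abca8b differed by -1.27 (SE 0.50) in the same order. Abca2 was the higher one, at -1.20, 0.34 and 1.34 in WT and 1.49 to 1.83 in KO livers (difference 1.46, SE 0.61), and its second probe gave 1.48.

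Of genes for VLDL assembly and secretion, 16 of 16 were measured, 3 lower and 0 higher (median -0.615). Mia2, a receptor that loads large cargo at endoplasmic reticulum exits, read 6.56, 6.61 and 5.15 in WT and 4.96, 4.95 and 5.03 in KO livers (difference -1.13, SE 0.45). Smlr1 differed by -1.05 (SE 0.42) and Sar1a, a GTPase of the same exit sites, by -0.93 (SE 0.40), and all 3 had an adjusted p of 0.235 to 0.237 in limma. In each, as in Mttp, WT 3 was the WT liver nearest to the KO livers. A second Sar1a probe gave -0.45 with overlapping groups. Apob, the protein on which Mttp acts, read 7.55, 7.41 and 7.41 in WT and 6.28, 6.92 and 7.15 in KO livers. Here the WT livers were close together and the KO livers spread below them (difference -0.67, SE 0.34, adjusted p 0.254). A second Apob probe gave -0.88 with overlapping groups.

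Of the LXR, SREBP and PPAR regulators, 19 of 19 were measured, 3 lower and 1 higher (median -0.488). Pparg, a nuclear receptor of lipid storage, read 2.6, 2.58 and 2.14 in WT and 1.72, 0.59 and 0.97 in KO livers (difference -1.35, SE 0.39, unadjusted limma p 0.00897, adjusted p 0.235). Insig1, which retains SREBP in the endoplasmic reticulum, read 2.73 to 3.11 in WT and 1.55 to 2.32 in KO livers (-0.87, SE 0.34). For these genes WT 3 did not lie with the KO livers. Nr5a2, a nuclear receptor of bile acid synthesis, differed by -1.12 (SE 0.44) and by -0.32 on its second probe. Srebf1, the regulator of fatty acid synthesis, read -3.56, -1.62 and 0.98 in WT and 1.23 to 1.86 in KO livers (2.94, SE 1.0), and WT 1 was not well above background. As on the dimmer Scarb1 probe, WT 1 and WT 2 were far below the other livers. Nr1h3, which encodes LXRα, differed by -0.56 (SE 0.37, adjusted p 0.319) and by -0.38 on its second probe. Srebf2, the regulator of cholesterol synthesis and uptake, differed by -0.49 (SE 0.37, adjusted p 0.374), and its second probe gave 0.27.

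**Figure D4:**
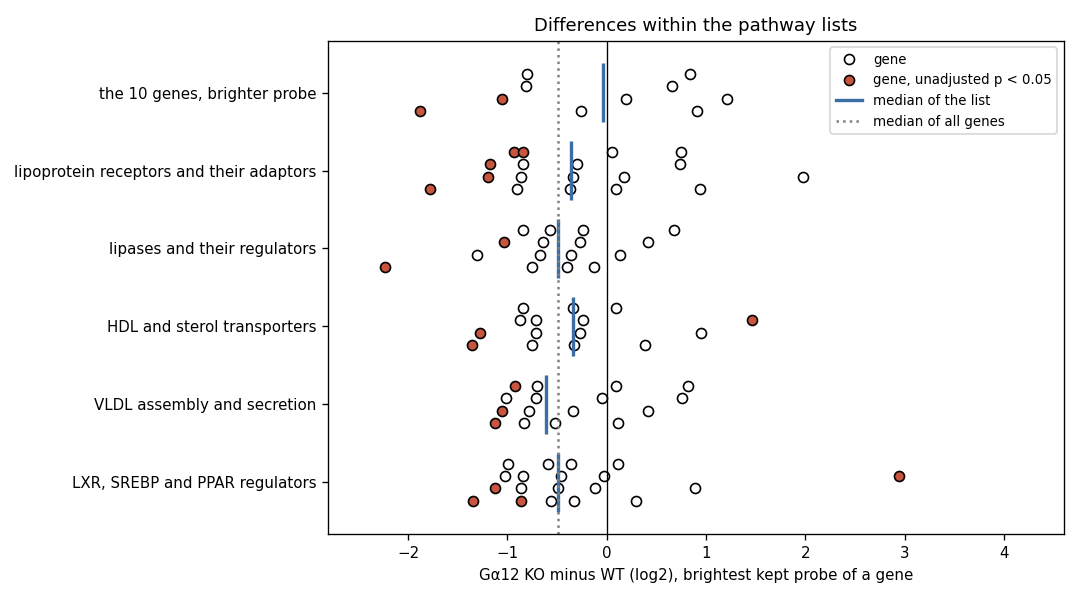
Difference between KO and WT livers (log2, horizontal axis) for each measured gene of the 5 pathway lists and for the 10 genes by their brighter probe; each circle is a gene, filled where its unadjusted p was below 0.05, with the list's median as a bar. The list medians, from -0.615 to -0.339, lie around the dotted median of all genes at -0.494, and that of the 10 genes is at -0.0323.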

How the data were processed

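Per the submitters' processing notes, the scanned images were quantified in Agilent Feature Extraction 10.7.3.1. In the deposited scanner files stands each spot's intensity on a linear scale, with the background subtracted by that software, per the file headers. The deposited series matrix is on a log2 scale, and each of its columns equals the log2 processed intensity plus 1 constant for the array, not centred by probe. The origin of those constants was not stated in the sources used here. The medians of those columns were 4.41, 4.17 and 4.70 on the WT arrays and 4.32, 4.44 and 4.52 on the KO arrays.

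Sample titles gave the groups and replicate numbers, and each array was taken as 1 animal, since the labels give 3 animals per group. The log2 processed intensity of 62976 spots per array was taken, control spots and spots marked as outliers were left out, and the array's 75th percentile was subtracted. A probe was kept where at least 3 of the 6 arrays had it well above background (23132 of 55681), and no spot was saturated. Accessions were matched to symbols in a RefSeq table of GRCm38.p6 (26762 probes, 20284 genes). The array was designed on another build, so no coordinates of that table are given. Promoter sequences come from RefSeq on GRCm38.p6, with their own positions.

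The test was limma 3.58.1 (R 4.3.3; two-sided, lmFit with eBayes), with Benjamini-Hochberg adjustment over all kept probes and a threshold of 0.05. The number of arrays limits the precision. The fit was tested on simulated data. Gna12 and Lipg, whose probes were not kept, were fitted over all probes. All arrays were on 1 slide and came from 1 scan. The deviations of same-numbered arrays from their group means correlated at -0.13, 0.0093 and -0.0431. Those of other WT and KO arrays correlated at -0.204 to 0.216. With so few arrays per group these values cannot decide whether replicate numbers pair the samples, and the main fit used no pairing.

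The 10 genes, the 5 pathway lists, the 9 marker lists and the alternatives were chosen with earlier results of these data known. Beside the 10 genes, the rule named up to 4 genes of a list, by unadjusted p among those below 0.05 without overlap, and Lipg, Angptl4, Angptl8, Gpihbp1, Nr1h3, Srebf2 and Apob whatever their values. Some genes that the rule named are not reported here, though the lists' counts include them. It also named the 5 genes most correlated with Vldlr. Alternatives were normexp on median intensities, other scalings, other filters, limma with trend and robust estimation, a replicate block, gene means and left-out arrays.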

Additional observations from a re-analysis of the deposited data

How the results depend on the processing

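The 13 member differences were recomputed under 16 other settings, 206 values in all. Of these, 186 kept their direction and side of the threshold, 9 kept their direction and passed the threshold (all without WT 3) and 11 changed sign. Settings that changed only the filter, the variance estimate or the replicate block left each difference unchanged, so its sign could not turn there. With gene means, both probes of a gene share 1 value. The sign changed for the brighter Scarb1 probe with quantile normalization (0.22), without WT 1 and WT 2 (0.33) and with gene means (1.10). Without WT 1 and WT 2 it also changed for the dimmer Scarb1 probe (-0.011), Lipc (-0.79), Pltp (-0.78), Abca1 (0.039) and Abcg1 (0.069). Leaving out 1 array in turn gave Pltp -0.23 to 0.68, member probes with an unadjusted p below 0.05 from 2 to 9 (6.66% to 63% of all kept probes) and without overlap from 3 to 11 (27.3% to 73.7% of all kept probes). It gave 0 to 13123 probes called over the array. List genes went from 2 to 47 lower and 0 to 13 higher, beside 1098 to 10475 and 364 to 4091 of the 23132 kept probes. Here and below, list counts are of genes by their brightest probe and array counts are of probes, so the units differ. With all 6 livers, 16.6% of genes were lower and 3.98% higher, against 15.4% and 5.62% of kept probes. Each upper end came without WT 3. Probes called over the array numbered 1 with normexp, 18 with quantile normalization, 2 with a filter on all 6 arrays, and 7 genes with gene means, none of them a member. List genes, 15 lower and 2 higher, became 28 and 4 with normexp and 9 and 5 with quantile normalization. At an unadjusted limma p below 0.05, 3561 of the 23132 kept probes were lower and 1300 higher. With normexp these were 3908 and 1273, and with quantile normalization 3402 and 1304. Without WT 1 and WT 2, 8 member probes and 58.1% of all kept probes did not overlap. The higher list genes became 1 with the deposited matrix, 4 without a filter and 1 with a filter on all 6 arrays. The higher probes in those settings were 1154 of 22832, 12280 of 55324 and 1043 of 17802. With a replicate block, 0 probes were called. There, 3 member probes had an unadjusted limma p below 0.05 (20% of all kept probes) and 3 did not overlap (24.3%). Whether replicate numbers pair the samples is not known. The slide was not used as a block because all arrays lay on 1. The cause of these changes was not tested. Dim signal limits the dimmer Vldlr and Scarb1 probes, of which 2 KO and 1 WT values were not well above background.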
